A study of Mus musculus with 384 samples.

Results

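The 4 FGF receptor genes Fgfr1, Fgfr2, Fgfr3 and Fgfr4, the receptor-like gene Fgfrl1 and the docking adaptor gene Frs2 were followed in single cells of 4 mouse pluripotent stem cell lines. These 6 genes were found by matching the Ensembl identifiers of the count table to gene symbols, among 31617 genes in all. Single cells were sorted into plates and their full-length mRNA was sequenced by Smart-seq2, and 326 of 384 cells with at least 3000000 counts were kept. The formative stem (FS) cell lines 5ar1 and 5ar2 were grown in AloXR, which the labels call A3XR and which holds low activin A, the tankyrase inhibitor XAV939 and the retinoic acid receptor inverse agonist BMS493, with no added FGF. The epiblast stem cell (EpiSC) line AFX6 was grown in AFX (activin A, Fgf2 and XAV939) and the EpiSC line AF32 in AF (activin A and Fgf2). The labels name no genetic change and no treatment in any line, and each EpiSC medium has 1 line, so that line and medium cannot be told apart. No EpiSC line was grown in AloXR and no FS line with added Fgf2. State and medium therefore cannot be told apart in any comparison of FS cells with EpiSCs. The kept cells numbered 90 of 5ar1, 90 of 5ar2, 66 of AFX6 and 80 of AF32.

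FGF receptors are receptor tyrosine kinases that bind FGF ligands together with heparan sulfate chains on the cell surface and then phosphorylate each other. The membrane-bound adaptor Frs2 carries most of that signal to Grb2, Shp2 and the Ras-ERK cascade. In the early mouse embryo FGF-ERK signalling drives cells out of naive pluripotency, and EpiSCs are routinely grown with added Fgf2. Fgfrl1 binds FGFs but lacks the tyrosine kinase domain of the other receptors.

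The lines had between 332621205 and 434858507 counts in the kept cells, and the median number of genes with a count was 10328 in AFX6 and 10330.5 in AF32 against 11371 in 5ar1 and 11567.5 in 5ar2. The defining marker Pou5f1 was at 644, 490, 529 and 533 CPM (counts per 1000000 counts) in 5ar1, 5ar2, AFX6 and AF32, where a line's CPM is the sum over its kept cells. All 8 epiblast markers were above 1 CPM in each line, while the naive markers summed to 2.1 to 4.83 CPM. A total of 7 cells had under 50 CPM of Pou5f1: 2 of 5ar1, 1 of 5ar2, 1 of AFX6 and 3 of AF32. They are taken up below where they touch a member, and this limit was chosen after the values were seen. Lines are the replicates in all tests, 2 against 2, and each share of cells above 0 has an exact 95% interval (Clopper-Pearson). For a share of 0 the limit given is 3 cells of the number examined, which bounds cells with such counts and not cells whose transcripts were missed. Both cover counting error over the cells of a line only, and not the spread between lines. Smart-seq2 reads carry no molecular identifiers, so the counts are of reads.

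A few reads of one library can appear in another. AFX6 listed 4 Y-linked genes (Ddx3y, Eif2s3y, Kdm5d and Uty) at 0.547 CPM together against a mean of 197 CPM in the other lines, which is 0.278%. A count of these genes was nevertheless found in 63 of 66 AFX6 cells, whereas none reached 5 CPM and the highest cell had 1.7 CPM. Shares of cells are therefore given first at 5 CPM or more, and at 1 count or more beside it. Whether the Y-linked counts are carried-over reads was not tested, and their rate does not cover transfer between cells of the same line.

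Fgfr1 was the main FGF receptor gene in every line. It was at 168 CPM in 5ar1, 175 CPM in 5ar2, 144 CPM in AFX6 and 222 CPM in AF32. The FS lines lay within a factor of 1.05 of each other, and the EpiSC lines lay on either side of them, AF32 at 1.5 times AFX6. The gene lies on chromosome 8 (GRCm38, 25513654 to 25575718, plus strand) and has 9875 exon bases, 164 of which it shares with the antisense gene Gm16159. Per kilobase of exon, Fgfr1 was at 17.0, 17.7, 14.6 and 22.5 CPM in 5ar1, 5ar2, AFX6 and AF32. It made up 93.7%, 91.0%, 91.3% and 94.2% of the per-kilobase sum of Fgfr1 to Fgfr4.

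Fgfr1 was found in nearly all cells. At least 5 CPM was present in 88 of 90 cells of 5ar1 (97.8%, interval 92.2 to 99.7%), 87 of 90 of 5ar2 (96.7%, 90.6 to 99.3%), 59 of 66 of AFX6 (89.4%, 79.4 to 95.6%) and 74 of 80 of AF32 (92.5%, 84.4 to 97.2%). A single count was enough in every cell but 1 of AFX6. The median cell had 162 CPM in 5ar1, 162 CPM in 5ar2, 112 CPM in AFX6 and 181 CPM in AF32. The middle 50% of cells ran from 106 to 238 CPM in 5ar1, from 96.9 to 238 CPM in 5ar2, from 79.4 to 194 CPM in AFX6 and from 109 to 337 CPM in AF32, so these ranges overlapped in all 4 lines. The highest cells had 454, 542, 467 and 656 CPM in the same order. The coefficient of variation over cells was 53.6% and 61.8% in the FS lines 5ar1 and 5ar2, and 71.5% and 71.6% in the EpiSC lines AFX6 and AF32.

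**Figure D1:**
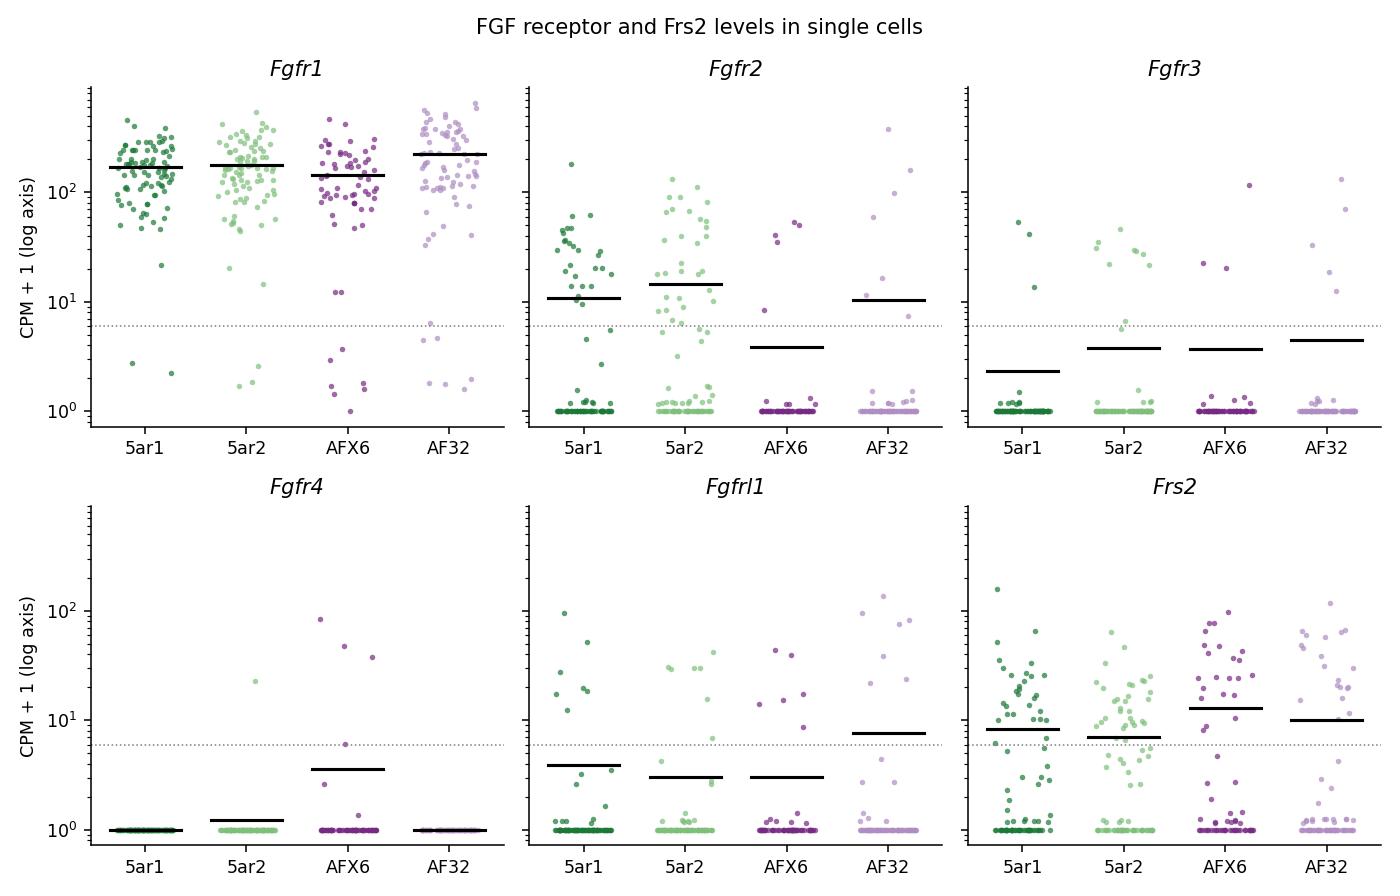
CPM plus 1 of each gene in each kept cell (points, log axis), with 1 column for each line; the black bar is the CPM summed over the cells of the line plus 1, and the dotted line marks 5 CPM. Fgfr1 lies far above the dotted line in most cells of every line, whereas the other genes are near 0 in most cells and high in a few.

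A small set of cells nearly lacked Fgfr1. Under 5 CPM were 2 cells of 5ar1, 3 of 5ar2, 7 of AFX6 and 6 of AF32. They had fewer detected genes than the other cells of their line, with medians of 10058 against 11384 in 5ar1, 10665 against 11607 in 5ar2, 9478 against 10493 in AFX6 and 9656 against 10386.5 in AF32. Their median Pou5f1 was 366, 416, 530 and 506 CPM in 5ar1, 5ar2, AFX6 and AF32, so that most of them held the epiblast marker. Within each line Fgfr1 had a weak positive relation to the number of detected genes (Spearman rho 0.24, 0.36, 0.15 and 0.27 over 90, 90, 66 and 80 cells, which share the depth of the same libraries). The part of detection in these low values was not tested.

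The high Fgfr1 of AF32 went together with the level of its chromosome. The ratio of chromosome 8 to the other autosomes, computed without the 6 genes, was above 1.2 in 41 of 80 AF32 cells and in 0 cells of 5ar1, 5ar2 and AFX6. The median Fgfr1 was 288 CPM in the 41 raised cells (middle 50% from 135 to 379 CPM) and 140 CPM in the other AF32 cells (69.2 to 222 CPM). Over the 80 cells rho between Fgfr1 and the ratio was 0.48, against 0.07, -0.09 and -0.14 in 5ar1, 5ar2 and AFX6. The AF32 cells without the raised chromosome had a summed Fgfr1 of 158 CPM, which lies between AFX6 at 144 CPM and 5ar1 at 168 CPM. The number of chromosomes in these cells was not measured.

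**Figure D2:**
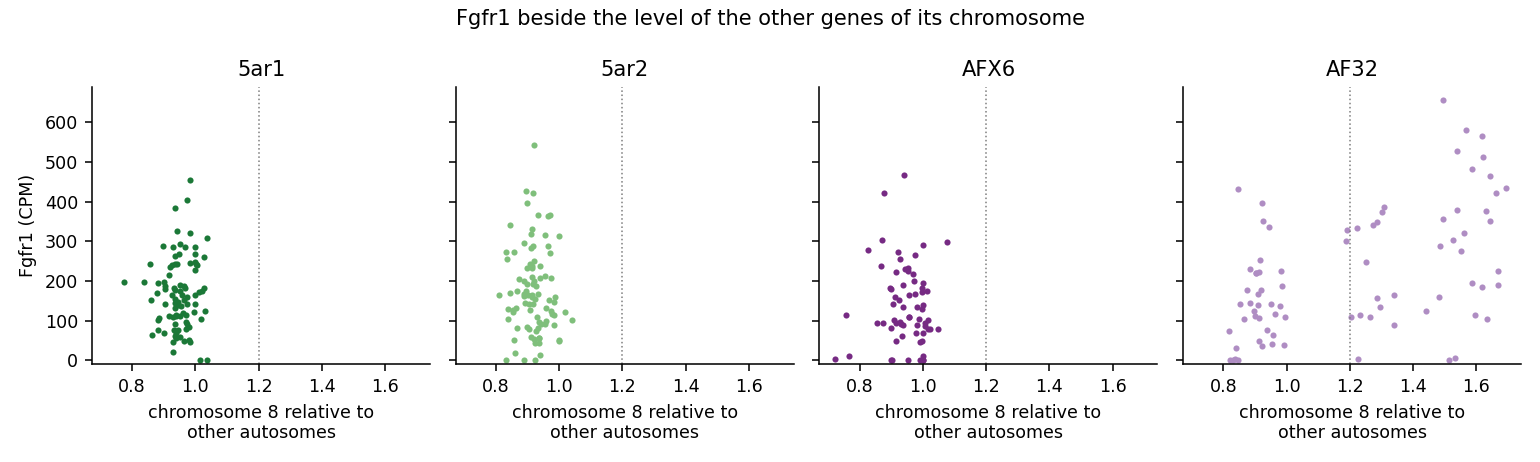
Fgfr1 in CPM (vertical axis) against the ratio of chromosome 8 to the other autosomes (horizontal axis, no unit) for each kept cell, with 1 panel for each line and a dotted line at 1.2. Only AF32 has cells right of the line, 41 of 80, and their median Fgfr1 was 288 CPM against 140 CPM in the rest of that line.

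Between FS cells and EpiSCs Fgfr1 had a mean of 171 CPM ± 5.39 (SD, n = 2 lines) against 183 CPM ± 55.3 (SD, n = 2 lines). Its log2 ratio of EpiSC over FS lines was 0.09 with a standard error of 0.25 in edgeR's quasi-likelihood test on line sums (adjusted p = 0.925). The difference was smaller than the spread between the EpiSC lines. Without the raised AF32 cells the ratio was -0.15 and without AF32 it was -0.22, so its sign depended on AF32.

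In percentage points, Fgfr2 was the receptor gene whose share of cells at 5 CPM differed most between FS cells and EpiSCs. At least 5 CPM was found in 27 of 90 cells of 5ar1 (30.0%, interval 20.8 to 40.6%) and 30 of 90 cells of 5ar2 (33.3%, 23.7 to 44.1%). The same level was found in 5 of 66 cells of AFX6 (7.58%, 2.5 to 16.8%) and 7 of 80 cells of AF32 (8.75%, 3.59 to 17.2%). The intervals of the FS lines lay above those of the EpiSC lines, but they count cells within a line and are no test between the states. With at least 1 count, the shares were 42.2% and 55.6% in the FS lines and 15.2% and 20.0% in the EpiSC lines. Counts under 5 CPM were held by 5 of the 10 AFX6 cells and 9 of the 16 AF32 cells with a count. If Fgfr2 were carried between libraries at the rate of the Y-linked genes, AFX6 would hold 0.0303 CPM of it, and it held 2.9 CPM. That sum does not speak for the cells with a count under 5 CPM, and carry-over of Fgfr2 was not tested. After thinning every cell to 3000000 counts the shares at 5 CPM were 31.1%, 32%, 7.58% and 8.75% in 5ar1, 5ar2, AFX6 and AF32.

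**Figure D3:**
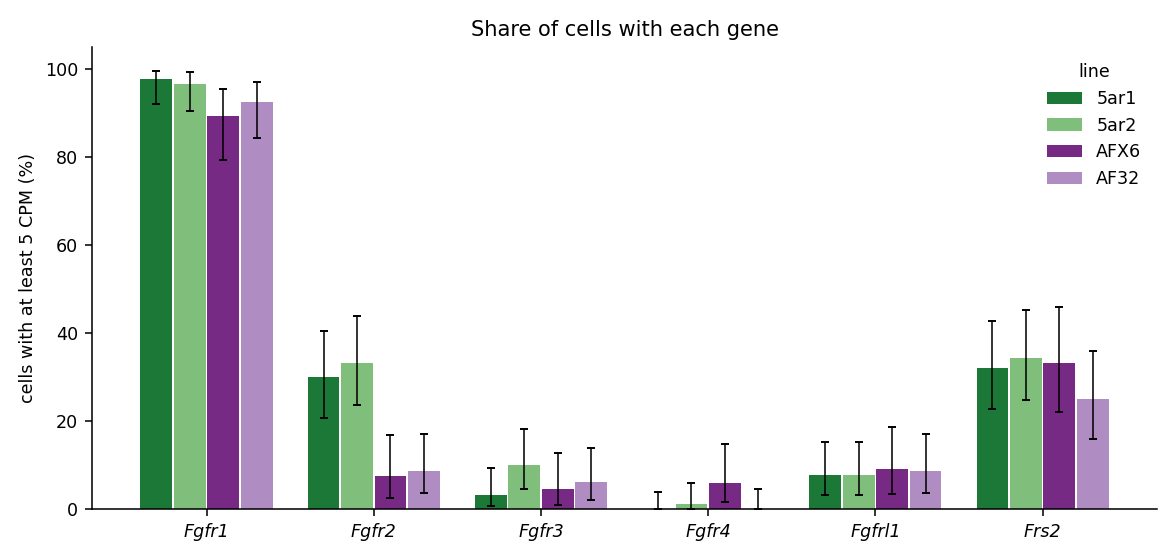
Share of kept cells with at least 5 CPM of each gene (vertical axis, percent), with 1 bar for each line and exact 95% intervals that cover counting error only. Fgfr2 was in 30.0% and 33.3% of FS cells against 7.58% and 8.75% of EpiSCs, while Fgfr1 was in 89.4% or more of every line and Fgfrl1 in 7.78% to 9.09%.

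Of the 6 genes, Fgfr1 and Fgfr2 had a higher share of cells at 5 CPM in both FS lines than in both EpiSC lines, a pattern that 39.0% of all tested genes showed. Only Fgfr2 of the 6 had at least 2-fold more in each FS line than in each EpiSC line, as had 7.21% of tested genes. For Fgfrl1 both EpiSC lines lay above both FS lines, by about 1 percentage point, a pattern of 8.7% of tested genes. FS cells had more detected genes than EpiSCs, as given above, and the part of this in the shares was not tested. Within the lines, the median number of detected genes was 11388 in Fgfr2 cells of 5ar1 and 11362 in its other cells, and 11613.5 and 11549.5 in 5ar2. In AFX6 it was 11469 in the 5 Fgfr2 cells and 10306 in the other cells, and in AF32 10145 in the 7 Fgfr2 cells and 10332 in the others, so that the gap was widest in AFX6 and turned in AF32.

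The summed level of Fgfr2 separated the states less than the share of cells. It was 9.84 CPM in 5ar1, 13.5 CPM in 5ar2, 2.9 CPM in AFX6 and 9.31 CPM in AF32. Both FS lines lay above both EpiSC lines, but AF32 reached almost the level of 5ar1. Of the 6 genes only Fgfr2 had higher sums in both FS lines, as had 26.8% of tested genes. The median of the Fgfr2 cells, at 5 CPM or more, was 28.2 CPM in 5ar1, 27.7 CPM in 5ar2, 39.3 CPM in AFX6 and 58.4 CPM in AF32. The FS mean was 11.7 CPM ± 2.6 (SD, n = 2 lines) and the EpiSC mean 6.09 CPM ± 4.56 (SD, n = 2 lines). The log2 ratio of EpiSC over FS lines was -0.94 with a standard error of 0.67 and did not pass the test (edgeR, adjusted p = 0.612). Of 22606 genes tested, 0.0% passed an adjusted p under 0.05 in this comparison, 3636 had an unadjusted p under 0.05, and DESeq2 called 2500 (11.5% of those to which it gave an adjusted p), none of them among the 6 genes.

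The Fgfr2 of AF32 came largely from cells with little Pou5f1. Its highest cell had 381 CPM of Fgfr2, 45.0% of the line's counts of the gene, beside 25.5 CPM of Pou5f1, 5.36 CPM of Fgfr1 and 12087 CPM of Vim (vimentin). Another AF32 cell with 98.2 CPM of Fgfr2 had 2.6 CPM of Pou5f1. The highest Fgfr2 cell of 5ar1, at 179 CPM, had 3.41 CPM of Pou5f1, 1.2 CPM of Fgfr1 and 10109 CPM of the neuronal tubulin gene Tubb3. The highest cells of 5ar2 and AFX6, at 130 and 51.9 CPM, had 431 and 473 CPM of Pou5f1. Without the 7 cells under 50 CPM of Pou5f1, Fgfr2 was at 8.64 CPM in 5ar1, 13.6 CPM in 5ar2, 2.9 CPM in AFX6 and 3.89 CPM in AF32. The log2 ratio was then -1.72 with a standard error of 0.45 (edgeR, adjusted p = 0.193). The shares of cells at 5 CPM changed less, to 29.5%, 33.7%, 7.69% and 6.5%.

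Over all kept cells, the relations of Fgfr2 to the summed marker lists were weak and differed between the FS lines. Over 8 marker lists, rho ran from -0.18 (epiblast) to 0.14 (primitive streak) in the 90 cells of 5ar1, and from -0.27 (fibroblast) to 0.17 (naive) in the 90 cells of 5ar2. The summed primitive streak markers had medians of 52.4 CPM in Fgfr2 cells and 44.1 CPM in other cells of 5ar1, and of 30.2 and 29.0 CPM in 5ar2. In line sums, Eomes made up 61.3 of 61.7 CPM of this list in 5ar1 and 48.2 of 50.3 CPM in 5ar2. The neural markers had medians of 238 and 224 CPM in 5ar1, and 114 and 123 CPM in 5ar2. Their line sums were mostly Tubb3, at 335 of 350 CPM in 5ar1 and 130 of 139 CPM in 5ar2. The epiblast markers had medians of 3104 and 3629 CPM in 5ar1, and 2289 and 2556 CPM in 5ar2, lower in the Fgfr2 cells of both. Their line sums were mostly Dnmt3b in the FS lines, at 2243 of 3428.5 CPM in 5ar1 and 1434 of 2494 CPM in 5ar2. In AF32 Tdgf1 at 1397.5 CPM and Dnmt3b at 616 CPM made up most of 3122.5 CPM. In AFX6 the 5 Fgfr2 cells had a median of 25.1 CPM of streak markers against 0.181 CPM in the other cells, and of 13.7 against 0.513 CPM of neural markers. In AF32 the 7 Fgfr2 cells went the other way, with medians of 0 against 0.202 CPM of streak markers, 16.6 against 18.1 CPM of neural markers and 2205 against 3293 CPM of epiblast markers. These are medians over cells of the same line and carry no test.

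Fgfr2 lies on chromosome 7, where the GENCODE record runs from 130162451 to 133123350 on the minus strand and overlaps 69 other genes. Only 314 of its 10328 exon bases are shared with another gene, Ctbp2. The counts are per gene and do not separate the splice forms that give Fgfr2 its epithelial and mesenchymal ligand preferences. The 250 bases before the RefSeq start (GRCm38.p6, minus strand, chr7:130266809-130267058) are shown because the results turn on Fgfr2, whose share of cells differed between the states, and on Fgfr4, which was found almost only in AFX6. In all, 5 of the 6 genes have an entry in the RefSeq promoter table, and Fgfr1 is not among them.
Fgfr2: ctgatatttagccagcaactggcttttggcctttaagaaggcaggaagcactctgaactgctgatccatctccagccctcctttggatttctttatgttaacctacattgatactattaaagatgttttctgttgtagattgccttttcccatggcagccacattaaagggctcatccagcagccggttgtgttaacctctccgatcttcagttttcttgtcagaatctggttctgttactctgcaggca
This window holds 2 CpG dinucleotides and is 44.0% G or C, against medians of 6 and 52.4% over the 32851 windows of the same length in the table. No match to the GC box letters GGGCGG or to TATAAA was found on either strand, motifs that 33% and 12.4% of all windows hold.

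Fgfr3 was low in every line and came from single cells. It was at 1.3 CPM in 5ar1, 2.8 CPM in 5ar2, 2.7 CPM in AFX6 and 3.50 CPM in AF32. At least 5 CPM was found in 3 and 9 of 90 cells of the FS lines 5ar1 and 5ar2, in 3 of 66 AFX6 cells and in 5 of 80 AF32 cells, and the intervals of these shares overlapped. The highest cell held 58.7% of the counts in 5ar1, 76.8% in AFX6 and 57.9% in AF32, but 20.4% in 5ar2. Without the highest cell of each line the sums were 0.561, 2.2, 0.643 and 1.5 CPM in 5ar1, 5ar2, AFX6 and AF32. The log2 ratio of EpiSC over FS lines was 0.60 with a standard error of 0.65 (edgeR, adjusted p = 0.765), and it was -0.39 without those 4 cells. The gene lies on chromosome 5 (33721674 to 33737068, plus strand) and shares 998 of 7158 exon bases with G630022F23Rik.

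Fgfr4 was found almost only in AFX6. Its summed counts were 859 in AFX6, 103 in 5ar2 and 0 in both 5ar1 and AF32. A count was present in 6 of 66 cells of AFX6 (9.09%, interval 3.41 to 18.7%), 1 of 90 of 5ar2 (1.1%, 0.0281 to 6.04%), and 0 of 90 cells of 5ar1 and 0 of 80 cells of AF32, which allow shares of cells with a count of up to 3.33% and 3.75%. The 6 AFX6 cells had 83.0, 46.7, 37.2, 5.08, 1.6 and 0.364 CPM, and the 5ar2 cell had 21.8 CPM. These sums were 2.6 CPM in AFX6 and 0.237 CPM in 5ar2. Set against 3 counts over all kept cells of AF32, AFX6 was 306-fold higher, but its highest cell held 47.4% of the level. This fold is no lower limit, since counts came in blocks per cell. The highest AFX6 cell had 407 and the 5ar2 cell 103. The log2 ratio of EpiSC over FS lines was 3.47 with a standard error of 3.74 (edgeR, adjusted p = 0.763).

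The AFX6 cells with Fgfr4 also held Fgfr1 and the epiblast marker. Their Fgfr1 ran from 11.2 to 272 CPM and their Pou5f1 from 226 to 626 CPM, and none had a count of Fgfr2. The endoderm markers summed to at most 1.2 CPM in these cells. Fgfr4 is best known from liver, endoderm and muscle precursors. It lies on chromosome 13 (55152640 to 55168759, plus strand) with 3542 exon bases and no overlapping gene. The 250 bases before its RefSeq start (GRCm38.p6, plus strand, chr13:55152568-55152817) are shown beside those of Fgfr2, with the GC box letters GGGCGG in capitals. The GENCODE record of Fgfr4 starts inside this window, upstream of the RefSeq start.
Fgfr4: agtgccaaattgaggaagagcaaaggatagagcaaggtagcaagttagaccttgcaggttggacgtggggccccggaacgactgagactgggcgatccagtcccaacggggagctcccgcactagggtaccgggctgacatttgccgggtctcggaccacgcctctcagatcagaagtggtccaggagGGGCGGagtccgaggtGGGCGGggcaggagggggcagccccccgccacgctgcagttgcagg
It holds 15 CpG dinucleotides and 2 GC boxes and is 64.0% G or C. The windows of Fgfrl1 and Frs2 hold 30 and 19 CpG dinucleotides, and those before the 2 listed starts of Fgfr3 hold 19 and 24. The listed window of Fgfr2 thus has the fewest among the 5 genes. GENCODE gives Fgfr2 5 starts of protein-coding transcripts, whereas a single RefSeq start was examined here. The match of letters is a description and was not tied to any level.

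Fgfrl1 was found in a like share of cells in all lines. At least 5 CPM was present in 7 of 90 cells of each FS line (7.78%), 6 of 66 AFX6 cells (9.09%) and 7 of 80 AF32 cells (8.75%). The sums were 2.9, 2.01, 2.02 and 6.6 CPM in 5ar1, 5ar2, AFX6 and AF32, highest in AF32, where the cells at 5 CPM or more had a median of 75.0 CPM. In AF32 2 of these cells, with 81.5 and 95.3 CPM, had under 50 CPM of Pou5f1, and without these 2 cells the line was at 4.04 CPM. The log2 ratio of EpiSC over FS lines was 0.81 with a standard error of 0.76 (edgeR, adjusted p = 0.720), and it turned to -0.24 without AF32. Fgfrl1 lies on chromosome 5 (108692382 to 108706924, plus strand) with 2782 exon bases.

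Between the EpiSC lines, Fgfr2 and Fgfrl1 of the 6 genes were at least 2-fold higher in AF32 (3.25-fold and 3.27-fold), as were 23.4% of tested genes, and Fgfr4 at least 2-fold higher in AFX6, as were 19.6%. Between the FS lines Fgfr3 and Fgfr4 were at least 2-fold apart, both higher in 5ar2, as were 25.7% of tested genes in either direction. These are folds between single lines and carry no test.

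Frs2, the adaptor that docks on the receptors, was found in 25.0% or more of the cells of each line at 5 CPM. It was at 7.26 CPM in 5ar1, 6.1 CPM in 5ar2, 11.8 CPM in AFX6 and 9.04 CPM in AF32. At least 5 CPM was found in 29 of 90 cells of 5ar1 (32%), 31 of 90 cells of 5ar2 (34.4%), 22 of 66 AFX6 cells (33.3%) and 20 of 80 AF32 cells (25.0%), so the share was not higher in EpiSCs although both sums were. The cells at 5 CPM or more had a median of 16.2 CPM in 5ar1, 14.0 CPM in 5ar2, 24.4 CPM in AFX6 and 29.7 CPM in AF32. Of the 6 genes Frs2 alone had higher sums in both EpiSC lines, as had 21.5% of tested genes. Its log2 ratio was 0.65 with a standard error of 0.38 (edgeR, adjusted p = 0.517) and was -0.03 on the mean of log2(CPM + 1) of the cells. Frs2 lies on chromosome 10 (117069427 to 117148534, minus strand) with 8747 exon bases. Chromosome 10 was above 1.2 in 18 of 80 AF32 cells, and mean Frs2 was 7.81 CPM in these and 10.2 CPM in the others.

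In the FS lines receptors were found together mainly as Fgfr1 with Fgfr2. Of the cells with at least 2 receptors at 5 CPM, 25 of 28 in 5ar1 and 24 of 34 in 5ar2 held exactly this pair, against 5 of 12 in AFX6 and 6 of 11 in AF32. The other such cells of AFX6 held Fgfr1 with Fgfr4 (4 cells) or with Fgfr3 (3 cells), and those of AF32 Fgfr1 with Fgfr3 (5 cells). At 5 CPM or more, both were present in 26 of 90 cells of 5ar1 (28.9%, interval 19.8 to 39.4%), 29 of 90 of 5ar2 (32%, 22.7 to 42.9%), 5 of 66 of AFX6 (7.58%, 2.5 to 16.8%) and 6 of 80 of AF32 (7.5%, 2.8 to 15.6%). With at least 1 count the shares were 42.2%, 55.6%, 15.2% and 20.0%, with means of 48.9% ± 9.43 (SD, n = 2 lines) in FS cells and 17.6% ± 3.43 (SD, n = 2 lines) in EpiSCs. The difference of -31.3 percentage points was larger than the spread between lines, with p = 0.333 in an exact two-sided permutation test over lines, the smallest value that 2 against 2 allows. Without the 7 cells low in Pou5f1 the shares at 5 CPM were 29.5%, 33%, 7.69% and 5.19%. Because nearly every cell had Fgfr1, the product of the separate shares came close to the shares found, at 29.3%, 32%, 6.8% and 8.09% in 5ar1, 5ar2, AFX6 and AF32.

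**Figure D4:**
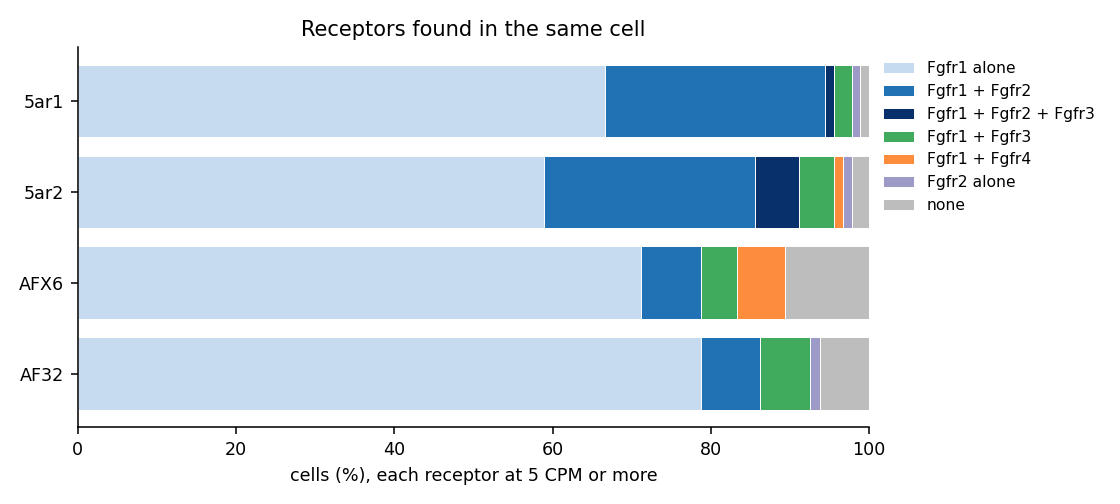
Share of kept cells (horizontal axis, percent) with each combination of Fgfr1 to Fgfr4 at 5 CPM or more, with 1 bar for each line. Fgfr1 alone made up 66.7% and 58.9% of the FS cells and 71.2% and 78.8% of the EpiSCs, Fgfr1 with Fgfr2 was wider in the FS lines, and Fgfr1 with Fgfr4 made up 6.06% of AFX6.

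Fgfr1 alone was the commonest state, in 60 of 90, 53 of 90, 47 of 66 and 63 of 80 cells of 5ar1, 5ar2, AFX6 and AF32 at 5 CPM or more. At least 2 of the 4 receptors were found in 31.1% of 5ar1, 37.8% of 5ar2, 18.2% of AFX6 and 13.8% of AF32 cells (exact permutation p = 0.333, again the smallest possible). At least 3 were found in 1 cell of 5ar1 and 5 cells of 5ar2, always Fgfr1, Fgfr2 and Fgfr3, and in 0 of 66 and 0 of 80 EpiSCs, which allows up to 4.55% and 3.75% of cells at that level. With at least 1 count, 3 receptors were found in 3 cells of 5ar1 (3.33%) and 13 cells of 5ar2 (14.4%), and among EpiSCs in 3 cells of AFX6 (4.55%) and 1 cell of AF32 (1.2%), so that AFX6 was then above 5ar1. In 2 of these 3 AFX6 cells the receptors were Fgfr1, Fgfr3 and Fgfr4. No cell held all 4 receptors, also at 1 count. A second receptor without Fgfr1 was rare: Fgfr2 alone reached 5 CPM in 1 cell each of 5ar1, 5ar2 and AF32. None of the 4 receptors reached 5 CPM in 1, 2, 7 and 5 cells of 5ar1, 5ar2, AFX6 and AF32, but with at least 1 count only 1 AFX6 cell lacked all of them.

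The level of Fgfr1 beside a second receptor had no common direction over the lines. Its median was 154 CPM in Fgfr2 cells and 164 CPM in the other cells of 5ar1, 167 and 155 CPM in 5ar2, 200.0 and 109 CPM in the 5 and 61 cells of AFX6, and 89.9 and 187 CPM in the 7 and 73 cells of AF32. Within lines rho between Fgfr1 and Fgfr2 ran from -0.11 to 0.30, and between Fgfr1 and Frs2 from -0.17 to 0.14. In 5ar2, 13 of the 15 cells with a count of Fgfr3 also had a count of Fgfr2, which is 14.4% of its cells beside a product of 9.26%. At 5 CPM it was 5 of 9 cells. In 5ar1 it was 3 of 10 cells, so this overlap was seen in 1 FS line. Fgfr2 was also found in 5 of the 7 Fgfrl1 cells of 5ar1 and 3 of 7 of 5ar2 at 5 CPM, against 1 of 6 in AFX6 and 1 of 7 in AF32. As shares of all cells these were 5.56% beside a product of 2.3% in 5ar1 and 3.33% beside 2.6% in 5ar2. In AFX6 they were 1.5% beside 0.689%, and in AF32 1.2% beside 0.766%. The share found lay above the product in all 4 lines, but in AFX6 and AF32 it rests on 1 cell each. The AF32 cell had 2.6 CPM of Pou5f1 and is among the cells under 50 CPM of that gene.

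Among receptor tyrosine kinases, Fgfr1 had rank 3 per kilobase of exon in each line, of 55 genes in the table. Above it were Ptk7, a kinase-dead Wnt co-receptor, at 28.8 to 34.8 CPM per kilobase, and the collagen receptor Ddr1 at 27.9 to 33. By the mean over lines the next were Tyro3, a receptor for Gas6, at 7.42 to 14.6, and the ephrin receptor Ephb4 at 7.34 to 11.3, although Tyro3 had rank 6 in AFX6, below Ephb4 and Epha2. Fgfr2 ranked between 21 and 28, Fgfr3 between 26 and 32, and Fgfr4 reached 25 only in AFX6. The exon length is the union over all transcripts of a gene, and ranks change without it. By CPM alone Fgfr1 was above Ptk7 and Ddr1 in 5ar1, 5ar2 and AF32. In AFX6 Ptk7 was higher, at 187 CPM against 144 CPM of Fgfr1. Fgfr1 to Fgfr4 together made up 12.3%, 13.8%, 10.9% and 14.4% of the per-kilobase sum of these kinases in 5ar1, 5ar2, AFX6 and AF32. None of the 46 tested kinases passed the test, 15 had higher sums in both FS lines and 12 in both EpiSC lines (33% and 26.1%, beside 26.8% and 21.5% of all tested genes), and their median log2 ratio was 0.11 beside 0.01 for all genes.

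**Figure D5:**
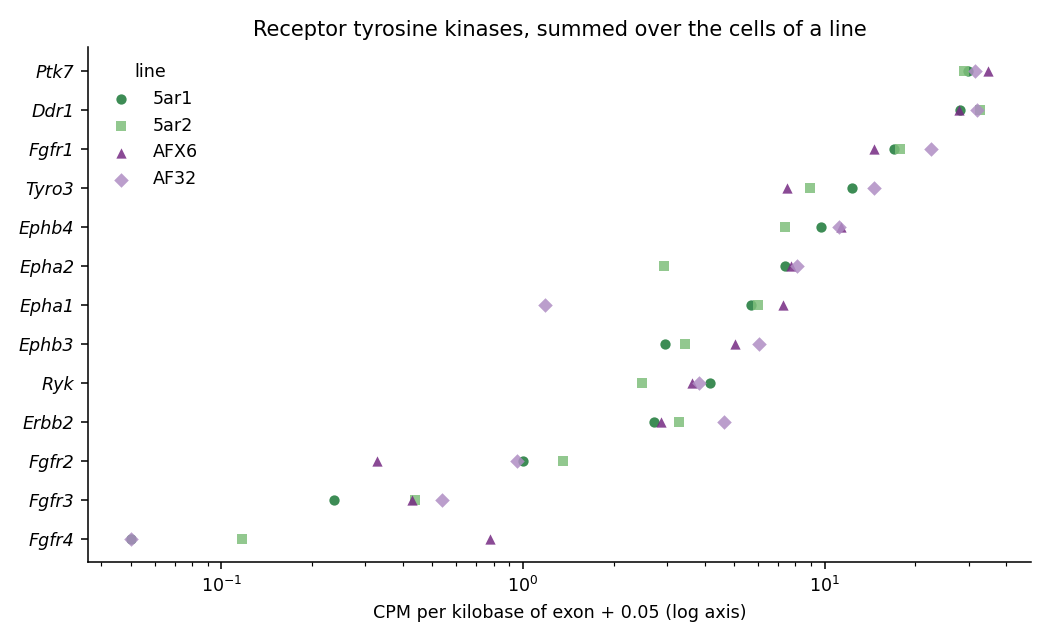
CPM per kilobase of exon plus 0.05 (horizontal log axis) of the 10 highest receptor tyrosine kinases and of Fgfr2, Fgfr3 and Fgfr4, summed over the cells of each line (symbols). Fgfr1 has rank 3 in all 4 lines at 14.6 to 22.5, and the other FGF receptors reach at most about 1.3.

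The genes whose levels over cells were most like Fgfr1 had weak relations to it. By the mean over lines of the within-line rho, among 8986 genes with at least 10 CPM, these were Ptk7 (0.28), the DNA damage binding protein gene Ddb1 (0.28) and Irf2bpl (0.27). The rho of Ptk7 ran from 0.13 in 5ar1 to 0.45 in 5ar2, and the median over all genes was 0.03. The points of each line share their libraries and depth.

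The ligand genes spanned wider ranges over the lines than Fgfr1, but none passed the test. Of 18 FGF genes listed, 11 passed the filter on low counts. Of these, 2 had higher sums in both FS lines and 1 in both EpiSC lines (18.2% and 9.09%, beside 26.8% and 21.5% of all tested genes). Their median log2 ratio was -0.46 beside 0.01 for all genes. Fgf5, the epiblast FGF, was at 229 and 272 CPM in the FS lines and 30.7 and 44.9 CPM in the EpiSC lines (log2 ratio -2.72, standard error 0.26, edgeR adjusted p = 0.190). DESeq2 called Fgf5 lower in EpiSCs with an adjusted p of 3.05e-15. The other ligand it called went the opposite way: Fgf17, named for this call after its values were seen, was at 0.657 and 0.814 CPM in the FS lines and 8.5 and 4.42 CPM in the EpiSC lines (log2 ratio 3.15, standard error 0.64, edgeR adjusted p = 0.190, DESeq2 adjusted p = 1.43e-05). Fgf15 was at 72.9, 48.4, 27.6 and 57.7 CPM in 5ar1, 5ar2, AFX6 and AF32. Fgf8, a ligand of the primitive streak, was at 0.529, 7.5, 6.06 and 66.3 CPM. Fgf4, the ligand by which naive cells signal to themselves and which was named after its values were seen, was at 44.2, 25.7, 25.8 and 3.73 CPM. Fgf2, which EpiSCs receive in their medium, was at most 0.0575 CPM in any line.

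No gene of the co-receptor, adaptor and feedback lists passed the test either. Of 21 tested co-receptor and heparan sulfate genes none passed, with a median log2 ratio of 0.00. The glypican gene Gpc3 was at 140 and 140 CPM in the FS lines and 303 and 232 CPM in the EpiSC lines (log2 ratio 0.95, standard error 0.21, edgeR adjusted p = 0.190). The heparan sulfate proteoglycan genes Sdc4 and Gpc4 ran from 42.9 to 95.6 CPM and from 33.9 to 127 CPM over the lines without separating the states. Kl was at 0 in all lines and Klb, the co-receptor of endocrine FGFs, at 0.0812 CPM or less. Of the 19 adaptor and Ras-ERK genes, none passed, with a median of 0.04. Sums were higher in both FS lines for 7 and in both EpiSC lines for 4 (36.84% and 21.05%, beside 26.8% and 21.5% of all tested genes). The highest per kilobase, Map2k1, Map2k2 and Shc1, differed by at most 0.35 on the log2 scale. Hras, the only gene of this list that DESeq2 called, was named after its values were seen. It was at 114 and 87.8 CPM in the FS lines and 48.7 and 40.3 CPM in the EpiSC lines (log2 ratio -1.175, standard error 0.24, edgeR adjusted p = 0.190, DESeq2 adjusted p = 0.00239). Frs3, the relative of Frs2, was at 1.98, 0.869, 8.31 and 3.43 CPM in 5ar1, 5ar2, AFX6 and AF32 (log2 ratio 2.06, standard error 0.79, edgeR adjusted p = 0.325) and was named after its values were seen. Of 13 feedback and Etv genes none passed, 4 had higher sums in both EpiSC lines and 1 in both FS lines. These are 30.8% and 7.69%, beside 21.5% and 26.8% of all tested genes. Their median log2 ratio was 0.49 beside 0.01 for all genes. The ERK phosphatase gene Dusp6 was at 144, 168, 417 and 226 CPM (log2 ratio 1.06, standard error 0.36, edgeR adjusted p = 0.281), Etv5 at 210.0, 152, 215 and 125 CPM and the inhibitor Spry2 at 53.3, 40.2, 14.7 and 43.2 CPM. In all lists DESeq2 called 2 ligands, 1 co-receptor gene, 1 adaptor or Ras-ERK gene, 2 feedback genes and 7 kinases, together 13 of the 110 list genes tested (11.8%, beside 11.5% of all genes).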

How the data were processed

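Single-cell RNA sequencing of 384 mouse cells, 96 of each line, was used. The authors aligned the reads to GRCm38.p6 with STAR 2.7.3a, counted uniquely mapped reads per gene with featureCounts 2.0.0 and deposited raw counts. The other table deposited by the authors is the output of sctransform, a score on the scale of counts that was used only as an alternative. Cells with at least 3000000 counts were kept (4401633 to 5069883 counts per cell in the median of a line). Gene symbols and exon lengths came from GENCODE M21. The 6 genes, the gene lists and the rule for named genes were chosen with earlier results of these data known.

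CPM was computed per cell and, for a line, from counts summed over its kept cells. Line sums were tested with edgeR 4.0.16 in R 4.3.3 (TMM, filterByExpr, quasi-likelihood test, Benjamini-Hochberg adjusted p under 0.05), FS lines against EpiSC lines. The test was checked on simulated data. It recovered the changed genes at a low dispersion, but none at a dispersion near that of these lines (common dispersion 0.653). A gene that did not pass is therefore not shown to be unchanged. The spread between the EpiSC lines includes that between their media. Shares over lines were compared by an exact two-sided permutation test in scipy 1.17.1. The study made the lines from epiblasts of mouse embryos plated singly, but the embryo and strain of each line are not given in the sources used here, and p-values measure only the spread between these lines. Named genes were the 6 genes, of each pathway list the 3 highest per kilobase of exon and any past the test, the 5 highest receptor tyrosine kinases, and the 3 genes most like each gene with a count in at least 50% of the cells of every line, which held for Fgfr1 only. Chromosome ratios divided genes with at least 20 CPM by their mean, with values above 3 set to 3. Alternatives were DESeq2 1.42.0, its size factors in edgeR, limma 3.58.1 on the mean of log2(CPM + 1), no filter on low counts, other depth limits, thinning, the deposited score and leaving out lines. Leaving out the highest cells, cells with raised chromosome 8, cells with few genes (pairs of receptors only) and cells under 50 CPM of Pou5f1 was added after the data were seen. Promoter windows came from RefSeq on GRCm38.p6.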

Additional observations from a re-analysis of the deposited data

How the results depend on the processing

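The count of genes past the test was 0 under 9 of 10 other settings in edgeR or limma, and 2500 with DESeq2, which called none of the 6 genes. The cause of this difference was not tested. The log2 ratio of EpiSC over FS lines turned for 5 of the 6 genes under some setting. On the mean of log2(CPM + 1) it was -0.35 for Fgfr1, -0.044 for Fgfr3 and -0.027 for Frs2. Without AF32 cells with raised chromosome 8 it was -0.15 for Fgfr1 and -0.43 for Fgfrl1. Without the highest cell of each line Fgfr3 was at -0.39, and Fgfr4 had no FS counts left for a ratio. Leaving out 1 line at a time gave -0.22 to 0.36 for Fgfr1, 0.19 to 1.2 for Fgfr3, -8.61 to 11.9 for Fgfr4, -0.24 to 1.4 for Fgfrl1 and 0.42 to 0.86 for Frs2. With AFX6 left out the EpiSC side of Fgfr4 had no counts, so that value depends on the prior count. The lone line left in a state was assumed to vary like the other state. Fgfr2 stayed negative under all 16 other settings, from -1.99 (without AF32) to -0.34 (without AFX6), and passed the test under none of the 14 that had one. The difference in cells with both Fgfr1 and Fgfr2 stayed between -38.0 and -23.0 percentage points under 10 other settings.

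No paired analysis was possible because the cell numbers in the titles repeat between lines and nothing in the labels pairs cells. Depth limits single cells: 3 counts are under 1 CPM, and a count in 0 of 66 AFX6 cells still allows a count in up to 4.55% of such cells, which sets no limit on cells whose transcripts were missed. Few lines, not depth, set the smallest p of the permutation test.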
